A study of Homo sapiens and Mus musculus with 30 samples.

Results

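The genes of cholesterol synthesis and of fatty acid synthesis were examined in cells that ranged from a LIN28B knockout, by its label, to high LIN28B, a protein that binds the precursors of let-7 microRNAs and keeps them from being processed. The set was named by gene symbol and holds 29 genes. Of these, 24 form the sterol arm, with 7 early enzymes, 11 late enzymes and 6 genes of sterol sensing and transport, and 5 form the fatty acid arm. The table for the human line HEK293A lists 28 of the 29 among its 11342 genes, and all 28 were among the 11125 tested. In the table for the mouse line NIH3T3, 28 were among 41128 genes listed, and all 28 were among the 10952 tested. The HEK293A member without values in that table is CYP51A1, and the NIH3T3 member is SCD, whose symbol had no match by the naming rule. A further table of let-7a-transfected HEK293A cells lists all 29 among 57820 genes.

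Cholesterol is built from acetyl-CoA. Early enzymes make mevalonate and join its isoprenoid products to farnesyl diphosphate, and late enzymes turn farnesyl diphosphate into squalene, close the sterol ring and trim it to cholesterol. Transcription of these enzymes is driven by SREBP2, the product of SREBF2, while SREBP1, the product of SREBF1, drives mainly fatty acid synthesis. Both are held in the endoplasmic reticulum by SCAP and the INSIG proteins when sterol is plentiful, and the SCAP complex moves to the Golgi for cleavage of the SREBPs when sterol is low. INSIG1 is itself an SREBP target, so its RNA is often read together with that of the enzymes.

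The microRNA introduced in the transfected cells is shown here, with the promoters of INSIG1, LSS and SREBF2, a regulator, an enzyme and a transcription factor described below, as examples of where the elements known from sterol-regulated genes lie. No test relates these sequences to the RNA values. Mature let-7a, as annotated by RefSeq, is encoded by 3 human genes, on chromosomes 9, 11 and 22, and capitals mark its seed (bases 2 to 8).
hsa-let-7a-5p: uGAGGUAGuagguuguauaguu
The promoter windows are RefSeq sequence of GRCh38.p14, the 250 bases before the annotated start. They lie at chr7:155297628-155297877 (plus strand) for INSIG1, at chr21:46228775-46229024 (minus strand) for LSS and at chr22:41832855-41833104 (plus strand) for SREBF2. Each is written in the gene's own direction, and capitals mark matches, on either strand, to CCAAT, the box bound by NF-Y, to TCACNCCAC, a sterol regulatory element core, and to CACGTG, an E-box.
INSIG1: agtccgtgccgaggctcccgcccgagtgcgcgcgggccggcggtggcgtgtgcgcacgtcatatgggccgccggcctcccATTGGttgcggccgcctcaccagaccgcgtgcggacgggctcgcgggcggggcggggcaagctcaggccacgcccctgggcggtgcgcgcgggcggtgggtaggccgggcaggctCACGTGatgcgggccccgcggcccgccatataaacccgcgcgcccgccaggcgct
LSS: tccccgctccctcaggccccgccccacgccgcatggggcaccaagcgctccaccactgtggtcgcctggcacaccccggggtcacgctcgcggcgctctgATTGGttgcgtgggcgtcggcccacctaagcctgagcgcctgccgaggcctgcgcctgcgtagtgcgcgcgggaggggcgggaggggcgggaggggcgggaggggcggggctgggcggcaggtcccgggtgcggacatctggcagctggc
SREBF2: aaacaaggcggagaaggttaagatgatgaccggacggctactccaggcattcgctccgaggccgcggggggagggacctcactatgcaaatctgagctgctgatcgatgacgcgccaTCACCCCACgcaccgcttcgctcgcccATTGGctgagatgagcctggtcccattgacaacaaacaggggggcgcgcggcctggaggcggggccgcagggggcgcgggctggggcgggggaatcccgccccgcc
In the SREBF2 window the sterol element core began 133 bases and the CCAAT match 106 bases before the start. The CCAAT match began 170 bases before the start in INSIG1 and 150 bases before it in LSS, and the E-box of INSIG1 began 55 bases before the start. RefSeq windows were matched for 25 of the 29 members. CCAAT on either strand was found in 17 of these 25 (68%), 15 of them among 21 sterol genes, against 33.0% of 27305 human promoter windows of the same length. TCACNCCAC was found in 1 of the 25, SREBF2, against 0.875% of all windows, and CACGTG in 3 of the 25 (SC5D, INSIG1 and SCAP) against 6.49%. A match is a run of letters and not a measured binding site. The search covered 250 bases and 1 written form of each element, so a window without a match does not show that the gene lacks the element.

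LIN28B was set at 5 levels, named X0, X1, X2, X3 and X4, in HEK293A, derived from human embryonic kidney, and in NIH3T3, fibroblasts derived from mouse embryos. The series design calls X0 a LIN28B knockout and X1 to X4 rising amounts. It speaks of 2 replicates, but each table holds 1 value for a level in each fraction, and pooling is neither stated nor denied. Cells grew in DMEM with 10% FBS, transgenes were induced with 10 ng/ml doxycycline, and mature let-7a was introduced at 10 nM with a lipid reagent. Whether X0 cells also received doxycycline, and whether each line is 1 clone, is not stated. The groups used here are therefore X0 with let-7a and X0 without it, both in HEK293A, and the 5 levels of each line without let-7a. Each of these had 1 library of polysome RNA, the RNA bound by ribosomes, and 1 library of total RNA from poly(A)-selected kits. The untransfected X0 cells are the only comparison for let-7a, and the labels name no mock transfection. Small RNA was also sequenced from HEK293A knockout and X3 cells, with and without let-7a, as total and as AGO2-bound RNA, 1 library each.

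The HEK293A libraries held 9.09 to 14.6 M reads (M, mega) in polysome RNA and 37.7 to 56.0 M in total RNA, and those of NIH3T3 15.9 to 20.8 M and 16.1 to 25.0 M. Reads were recovered from the deposited values. The let-7a pair held 7.39 M and 35.1 M. Total RNA of LIN28B stood at 3.60, 23.0, 33.4, 81.2 and 208 RPKM from X0 to X4 in HEK293A, so that the library labelled knockout was lowest but not at 0. Mouse Lin28b had 1, 1, 1, 9 and 42 reads in NIH3T3 total RNA from X0 to X4 (at most 0.354 RPKM) and 1, 3, 4, 13 and 42 in polysome RNA, highest at X4 in both, and the sources used here do not say whether the transgene there is human or mouse. Of 6 HEK293A markers 4 were listed at 1 RPKM or more in HEK293A and 0 of 7 fibroblast markers were. In NIH3T3 6 of the 7 fibroblast markers reached 1 RPKM, Postn being the exception, and 0 of 6 HEK293A markers did. Since no source names separate cultures, a p-value below covers only the scatter of 5 libraries around a straight line, which may be technical, and with bulk RNA fewer cells of a type and less RNA per cell cannot be told apart.

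Expression of the set spanned a wide range in HEK293A. RPKM, reads per kilobase of gene and per M reads mapped, allows levels to be compared between genes. FASN, the fatty acid synthase, had the highest mean total RNA (111 ± 11.0 RPKM, SD over 5 levels), followed by the stearoyl-CoA desaturase SCD (76.9 ± 2.85 RPKM), which differed from FASN by more than its spread. DHCR7, the last reductase of cholesterol synthesis (52.7 ± 5.32 RPKM), and FDPS, which makes farnesyl diphosphate (51.2 ± 3.95 RPKM), followed and did not differ beyond their spread. HSD17B7, a sterol ketoreductase, was lowest at 1.46 ± 0.114 RPKM, and it is uncertain because a near-identical pseudogene exists. Among early enzymes FDPS was highest and MVK, mevalonate kinase, lowest (5.04 ± 0.606 RPKM), and among genes of sensing and transport SREBF2 was highest (23.2 ± 2.45 RPKM) and INSIG2 lowest (4.38 ± 0.587 RPKM).

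The first question was whether the RNA level of these genes changed as LIN28B rose. In HEK293A total RNA, 5 of 23 sterol genes fell and 1 rose, and 0 of the 5 fatty acid genes passed the test. Genes that fell were INSIG1, IDI1, LSS, SQLE and HMGCS1, and the gene that rose was SC5D. Over all 11125 genes 0.764% fell and 1.48% rose. The median slope of the sterol genes was −0.06 log2 units per level and that of the fatty acid genes −0.03, beside 0.00 for all genes. Slopes come from a line over the rank of the level fitted with limma to log2 of RPKM plus 0.5, with Benjamini-Hochberg adjustment over all genes and a threshold of 0.05.

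INSIG1, the sterol-regulated anchor of SCAP, overlaps the divergent transcript INSIG1-DT in the annotation, and reads of the pair cannot be told apart. It had total RNA of 29.9, 20.1, 17.9, 14.7 and 15.7 RPKM from X0 to X4. It was highest at X0, lay within a narrow range from X3 to X4, and fell by 0.23 ± 0.04 log2 units per level (SE; adjusted p = 0.0316). SQLE, squalene epoxidase, stood at 44.1, 37.1, 35.2, 29.4 and 28.8 RPKM, in strict descending order, and fell by 0.15 ± 0.02 (adjusted p = 0.0172). LSS, which closes the sterol ring as lanosterol synthase, stood at 21.4, 17.3, 17.0, 16.3 and 12.7 RPKM. It too was in descending order and fell by 0.15 ± 0.03 (adjusted p = 0.0316). IDI1, isopentenyl diphosphate isomerase, had 46.4, 37.9, 34.1, 27.7 and 29.9 RPKM, and HMGCS1, HMG-CoA synthase, 44.3, 36.1, 34.2, 28.2 and 30.9 RPKM. Both were highest at X0 and lowest at X3, IDI1 falling by 0.17 ± 0.03 (adjusted p = 0.0297) and HMGCS1 by 0.14 ± 0.03 (adjusted p = 0.0488). SC5D, the sterol C5 desaturase, was the exception, with 11.9, 13.6, 14.7, 15.0 and 17.3 RPKM in ascending order and a rise of 0.12 ± 0.02 (adjusted p = 0.0323). X0 held the highest value of each of the 5 genes that fell. Without X0, 0 of the 23 sterol genes passed (1 rise and 6 falls at an unadjusted p under 0.05), and without X3 only LSS, SQLE and SC5D did, at adjusted p of 0.0494, 0.0494 and 0.0495. Over all 11125 genes 0 fell and 3 rose without X0, and 33 fell and 94 rose without X3.

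The other total RNA slopes were shallower. SREBF2 had total RNA of 27.0, 23.6, 22.9, 22.2 and 20.2 RPKM from X0 to X4, also in descending order, but did not pass (−0.09 ± 0.02, adjusted p = 0.067). Of the 5 fatty acid genes the steepest was ACACA, acetyl-CoA carboxylase, at −0.03 ± 0.02 (adjusted p = 0.524). Centred on the trimmed mean of each library, 4 sterol genes fell and 1 rose, against 0.629% and 1.03% of all genes, HMGCS1 no longer passing (adjusted p = 0.0558).

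**Figure D1:**
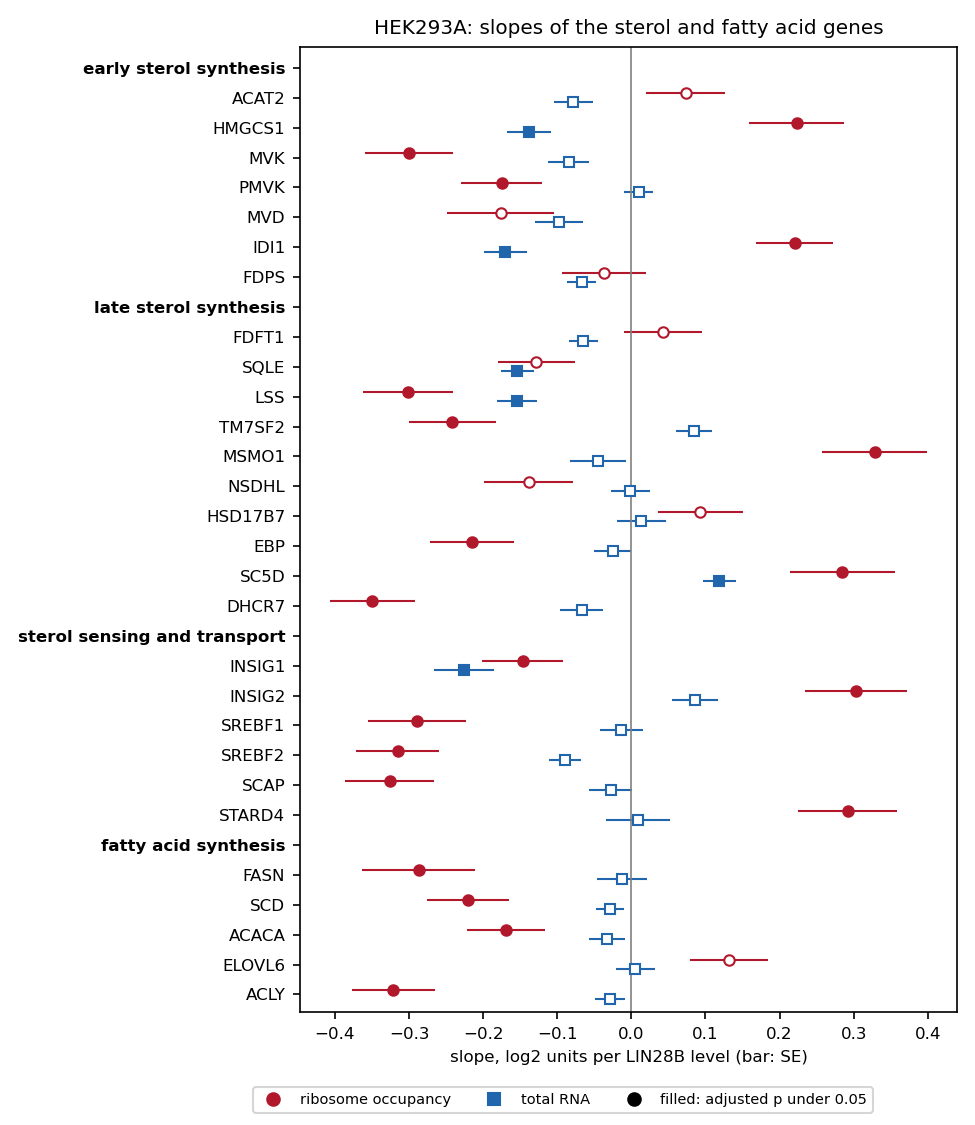
Slopes of 28 genes in HEK293A, in log2 units per LIN28B level, for ribosome occupancy (red circles) and total RNA (blue squares), with SE as bars and filled symbols for adjusted p under 0.05. Occupancy slopes run from −0.35 (DHCR7) to 0.33 (MSMO1), whereas total RNA slopes run from −0.23 (INSIG1) to 0.12 (SC5D).

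The second question was whether the share of these messengers on ribosomes changed. Ribosome occupancy was taken as the log2 of polysome RPKM plus 0.5 minus that of total RPKM plus 0.5. It is relative within each pair of libraries, so 0 marks equal representation in both and not a set share of molecules. In HEK293A 10 of 23 sterol genes fell in occupancy and 6 rose, and 4 of 5 fatty acid genes fell and 0 rose. Over all genes 39.0% fell and 19.1% rose. Falls among the sterol genes were thus near their share among all genes, and 5 fatty acid genes are too few to be read against it. Median slopes were −0.14 for sterol genes and −0.22 for fatty acid genes, beside −0.07 for all genes, and the median gene stood 0.32 log2 units lower at X4 than at X0. After centring, 8 sterol genes fell and 8 rose, and 3 fatty acid genes fell and 1 rose, beside 27.6% and 28.3% of all genes. In the edgeR quasi-likelihood test on recovered reads the sterol counts were 7 and 8 and the fatty acid counts 3 and 1. Without X4, 0 of the 28 genes and 0 of all 11125 passed. At an unadjusted p under 0.05 that fit gave 5 sterol rises, 7 sterol falls and 2 fatty acid falls, beside 1372 rises and 3120 falls over all genes. Without X0, 5 sterol genes and 2 fatty acid genes fell and 0 rose, beside 1511 falls and 163 rises over all genes. Occupancy contains total RNA with a minus sign, so the values of both fractions are given below.

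Among the 7 early enzymes 2 fell and 2 rose, beside 39.0% and 19.1% of all genes. After centring 1 fell and 3 rose, beside 27.6% and 28.3% of all genes, and edgeR also gave 1 fall and 3 rises. MVK had polysome RNA of 8.72, 5.05, 5.13, 3.20 and 2.48 RPKM from X0 to X4, beside total RNA of 6.05, 5.07, 4.73, 4.87 and 4.47 RPKM. Its polysome RNA was highest at X0 and lowest at X4, a 3.52-fold difference, and occupancy fell by 0.30 ± 0.06 per level (adjusted p = 0.00369). PMVK, the next kinase, had polysome RNA of 68.2, 50.5, 59.0, 45.9 and 40.2 RPKM on a nearly level total RNA of 34.7, 34.2, 35.8, 35.6 and 35.3 RPKM. Its occupancy slope was −0.18 ± 0.05 (adjusted p = 0.0197), which after centring did not pass (adjusted p = 0.0972). HMGCS1 and IDI1, whose total RNA fell, had rising occupancy. The polysome RNA of HMGCS1 was 34.5, 47.4, 39.2, 43.4 and 48.5 RPKM, and that of IDI1 was 61.7, 71.1, 61.3, 61.3 and 79.2 RPKM, each highest at X4. Occupancy rose by 0.22 ± 0.06 for HMGCS1 (adjusted p = 0.0141) and by 0.22 ± 0.05 for IDI1 (adjusted p = 0.00619), while their polysome RNA alone had slopes of 0.08 (adjusted p = 0.189) and 0.05 (adjusted p = 0.41). MVD, mevalonate diphosphate decarboxylase, did not pass in occupancy (−0.18 ± 0.07, adjusted p = 0.0562). Its polysome RNA of 14.3, 7.52, 11.3, 6.75 and 5.53 RPKM fell (−0.27 ± 0.08, adjusted p = 0.0166) beside total RNA of 8.81, 7.64, 8.12, 7.90 and 6.04 RPKM. Without centring, ACAT2, which makes acetoacetyl-CoA, and FDPS did not pass in occupancy, total RNA or polysome RNA. FDPS, whose reads could be split with its pseudogenes, had polysome RNA of 91.8, 74.8, 80.3, 79.0 and 62.1 RPKM and total RNA of 55.9, 53.5, 52.3, 47.0 and 47.2 RPKM, highest at X0 in both.

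Late enzymes, of which 10 were measured, held 4 falls and 2 rises. DHCR7 had polysome RNA of 55.3, 44.0, 41.7, 27.1 and 16.2 RPKM, in descending order, and total RNA of 57.0, 52.6, 54.0, 56.1 and 43.7 RPKM, lowest at X4. Its occupancy slope, −0.35 ± 0.06 (adjusted p = 0.00319), was the steepest fall among the members. LSS had polysome RNA of 17.0, 10.5, 9.75, 5.29 and 4.46 RPKM, also in descending order and 3.82-fold lower at X4 than at X0. Both its fractions fell, and its occupancy fell by 0.30 ± 0.06 (adjusted p = 0.00385). For TM7SF2, a sterol C14 reductase, polysome RNA was 13.4, 12.7, 13.6, 9.60 and 8.73 RPKM and total RNA 7.92, 8.81, 9.11, 10.4 and 9.96 RPKM. Its polysome value lay above its total value from X0 to X2 and below it at X3 and X4, with an occupancy slope of −0.24 ± 0.06 (adjusted p = 0.00702). EBP, the sterol isomerase, had 5.90, 6.10, 4.53, 4.23 and 2.79 RPKM in polysome RNA on total RNA between 5.11 and 5.71 RPKM, and its occupancy fell by 0.21 ± 0.06 (adjusted p = 0.00979; 0.0697 with the count test).

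MSMO1 and SC5D, the enzymes of sterol C4 demethylation and C5 desaturation, went the other way. Polysome RNA of MSMO1 was 8.10, 12.3, 8.91, 11.9 and 22.8 RPKM, beside total RNA of 12.9, 11.2, 10.3, 9.48 and 11.9 RPKM. Its X4 polysome library stood well above the others, and its occupancy rose by 0.33 ± 0.07 (adjusted p = 0.00468). SC5D had polysome RNA of 9.12, 19.5, 17.1, 21.7 and 36.5 RPKM, lowest at X0 and highest at X4, a 4.00-fold range. Both its fractions rose, and its occupancy rose by 0.28 ± 0.07 (adjusted p = 0.00733). SQLE, whose polysome RNA fell from X0 to X4 in strict order (32.8, 28.3, 23.0, 18.5 and 14.9 RPKM, −0.28 ± 0.04, adjusted p = 0.00321), did not pass in occupancy (−0.13 ± 0.05, adjusted p = 0.0536). Its total RNA fell too. FDFT1, squalene synthase, NSDHL, which acts with MSMO1, and HSD17B7 did not pass in any fraction. HSD17B7 had polysome RNA of 1.69, 1.35, 2.46, 2.03 and 2.21 RPKM and total RNA of 1.53, 1.27, 1.54, 1.46 and 1.52 RPKM, with X1 lowest in both. Its occupancy slope of 0.09 ± 0.06 did not pass (adjusted p = 0.183) but did after centring (adjusted p = 0.0395).

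All 6 genes of sterol sensing and transport changed in occupancy, 4 downward and 2 upward, where 39.0% of all genes fell and 19.1% rose. SREBF2 had polysome RNA of 22.7, 14.7, 14.8, 9.23 and 6.64 RPKM, highest at X0 and 3.42-fold lower at X4. Its occupancy slope was −0.32 ± 0.06 (adjusted p = 0.00319). SREBF1 had 4.01, 2.62, 3.02, 1.63 and 1.41 RPKM in polysome RNA on total RNA of 5.10, 4.58, 4.42, 5.05 and 4.61 RPKM. Its total RNA had no order, and its occupancy fell by 0.29 ± 0.07 (adjusted p = 0.00564). SCAP, the escort of both SREBPs, had polysome RNA of 20.1, 14.0, 14.8, 8.84 and 7.05 RPKM on total RNA of 21.7, 21.7, 22.5, 23.4 and 18.9 RPKM. Here too X3 and X4 were the lowest polysome libraries, and occupancy fell by 0.33 ± 0.06 (adjusted p = 0.00334). INSIG1 had polysome RNA of 26.5, 19.7, 13.3, 10.1 and 9.77 RPKM, in descending order, which fell by 0.37 ± 0.05 (adjusted p = 0.00321). The slope of its total RNA was −0.23, and its occupancy fell by 0.15 ± 0.05 (adjusted p = 0.0402), a call lost after centring (adjusted p = 0.194) and with the count test (adjusted p = 0.242).

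The paralog INSIG2, which is not a major SREBP target in cultured cells, ran opposite to INSIG1. Its polysome RNA was 2.80, 6.34, 5.09, 6.87 and 11.7 RPKM, and its total RNA 3.76, 4.32, 4.35, 4.15 and 5.35 RPKM. X0 was lowest and X4 highest in both fractions, polysome RNA at X4 was 4.19 times that at X0, and occupancy rose by 0.30 ± 0.07 (adjusted p = 0.00544). STARD4, a carrier of cholesterol between membranes, had 1.96, 2.90, 2.04, 3.31 and 6.08 RPKM in polysome RNA and 4.97, 4.34, 4.06, 3.93 and 5.39 RPKM in total RNA. Its occupancy rose by 0.29 ± 0.07 (adjusted p = 0.00555). The X0 polysome values of INSIG2 and STARD4 rest on 137 and 138 reads.

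**Figure D2:**
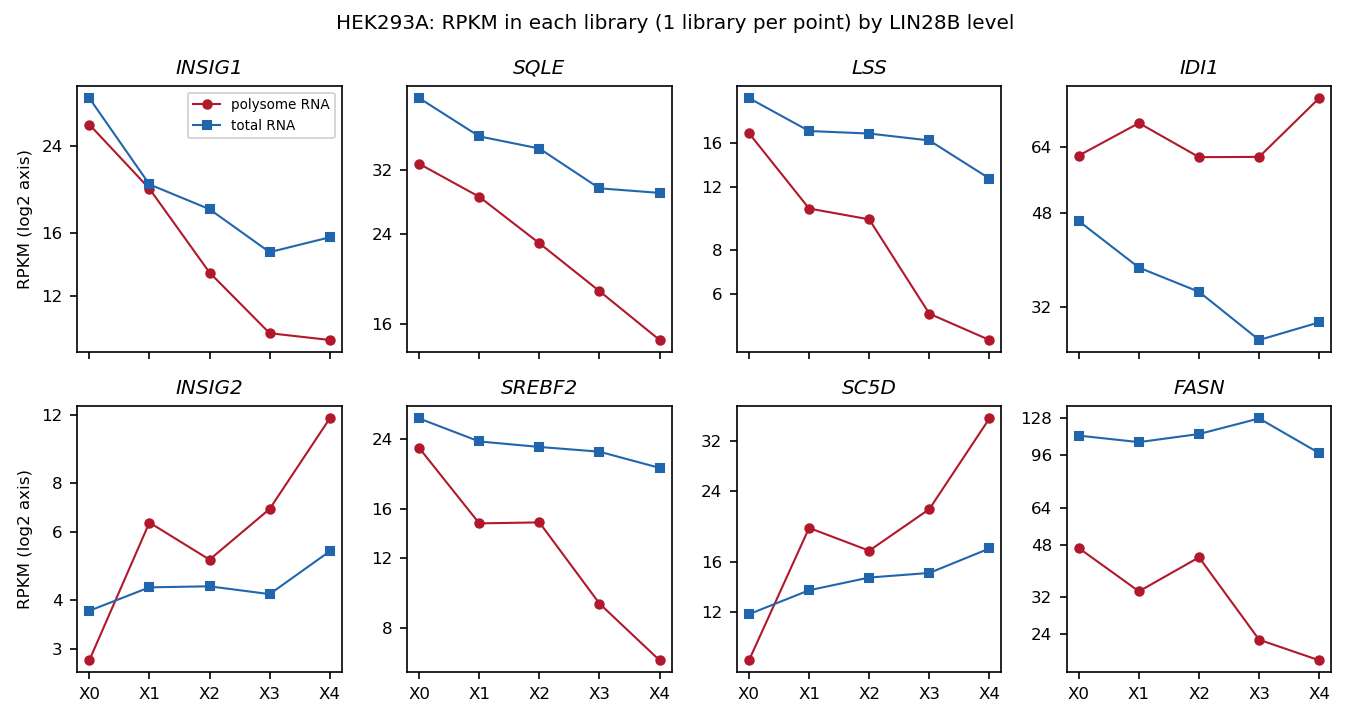
RPKM of 8 genes in each HEK293A library, 1 point per library, for polysome RNA (red circles) and total RNA (blue squares) at LIN28B levels X0 to X4, on log2 axes with their own ranges. Polysome RNA of SREBF2, LSS and FASN is lower at X3 and X4 than at X0, with a smaller or no change in total RNA, while INSIG2 and SC5D polysome RNA is highest at X4.

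Of the 5 fatty acid enzymes, FASN, ACLY and ACACA had low occupancy and SCD and ELOVL6 did not stand out. Averaged over the 5 levels, occupancy was −1.80 for FASN, −1.57 for ACLY, the enzyme that supplies cytosolic acetyl-CoA, and −1.40 for ACACA, beside a median of −0.43 over all genes. Only 1.35%, 3.14% and 5.73% of genes lay below them, whereas 23.8% lay below SCD (−0.93) and 75.0% below ELOVL6 (0.23). FASN had polysome RNA of 46.7, 33.5, 43.5, 23.0 and 19.6 RPKM, lowest at X3 and X4, on total RNA of 112, 106, 113, 127 and 97.5 RPKM, and its occupancy fell by 0.29 ± 0.08 per level (adjusted p = 0.00982). ACLY had polysome RNA of 24.2, 17.9, 17.8, 12.0 and 8.46 RPKM on total RNA of 49.1, 45.0, 45.6, 46.1 and 43.9 RPKM. Its occupancy fell by 0.32 ± 0.06 (adjusted p = 0.00319). SCD had 50.4, 51.8, 43.1, 35.8 and 25.3 RPKM in polysome RNA and 78.6, 78.8, 79.4, 74.7 and 73.1 RPKM in total RNA. X0 and X1 were close to each other and X4 lowest, with a fall of 0.22 ± 0.06 (adjusted p = 0.00784). ACACA, with polysome RNA of 7.39, 5.73, 5.55, 4.82 and 3.75 RPKM on total RNA of 16.4, 14.5, 14.8, 14.0 and 14.9 RPKM, fell by 0.17 ± 0.05 (adjusted p = 0.0194; 0.0987 after centring). ELOVL6, which lengthens the C16 fatty acids, was the exception. Its polysome RNA rose (8.83, 8.76, 10.2, 11.5 and 12.7 RPKM, slope 0.14 ± 0.05, adjusted p = 0.0341) on total RNA of 9.02, 8.43, 8.52, 8.17 and 9.34 RPKM, and its occupancy slope of 0.13 ± 0.05 did not pass (adjusted p = 0.0512) but did after centring (adjusted p = 0.0116).

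In polysome RNA taken alone, 12 of 23 sterol genes fell and 4 rose, and 4 of 5 fatty acid genes fell and 1 rose, beside 38.6% and 20.3% of all genes. All 14 genes with falling occupancy also fell in polysome RNA, and INSIG1 and LSS of the 14 fell in total RNA. Of the 6 genes with rising occupancy 4 rose in polysome RNA, namely INSIG2, MSMO1, SC5D and STARD4, and 1 rose in total RNA, SC5D. Over all genes 0.764% fell and 1.48% rose in total RNA, and the overlap of calls over all genes was not counted. These 3 fits share libraries, and occupancy is polysome minus total RNA, so such overlaps arise in part by construction. The median absolute change of occupancy from X0 was 0.34, 0.32, 0.85 and 0.95 log2 units at X1, X2, X3 and X4 for the 28 genes, beside 0.28, 0.27, 0.56 and 0.72 for all genes. X0 enters each of these differences, which have no test.

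Other genes of the same pathways were counted from lists. Of 17 further sterol genes measured in HEK293A 5 fell in occupancy and 2 rose, again beside 39.0% and 19.1% of all genes. Among those that fell were STARD3, a late endosomal sterol transporter (−0.31), the liver X receptor NR1H2 (−0.30), MBTPS1, the first protease to cut SREBPs (−0.29), and the lysosomal cholesterol exporter NPC1 (−0.14). GGPS1, which makes geranylgeranyl diphosphate (0.17), and NPC2, the partner of NPC1 (0.12), rose. Of 18 further fatty acid genes 9 fell and 3 rose. MID1IP1, an activator of acetyl-CoA carboxylase (−0.36), the desaturase FADS2 (−0.33), the enoyl-CoA reductase TECR (−0.32) and the citrate carrier SLC25A1 (−0.32) had the steepest falls. AACS (−0.23), ELOVL1 (−0.24), SCD5 (−0.20), ACSS2 (−0.19) and FADS1 (−0.18) fell as well, and HSD17B12 (0.20), GPAM (0.20) and ACSL4 (0.19) rose. In total RNA 0 of the 17 passed (1 rise and 2 falls at an unadjusted p under 0.05), and of the 18 only FADS2 did, with a fall of 0.12 ± 0.02 (adjusted p = 0.0435), beside 0.764% falls and 1.48% rises over all genes.

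In NIH3T3 the trends were fitted the same way, and 0 of the 28 genes passed in occupancy, total RNA or polysome RNA with limma, as did 0% of all 10952 genes in each. The edgeR test also called 0 genes. At an unadjusted p under 0.05, limma gave 0 of 24 sterol and 0 of 4 fatty acid genes in occupancy, and slopes above 0 in 294 and below 0 in 258 of all genes (769 and 393 in total RNA, 640 and 359 in polysome RNA). In total RNA it gave Scap (0.25 ± 0.06, adjusted p = 0.376) and Srebf2 (0.12 ± 0.04, adjusted p = 0.448), both with slopes above 0. Polysome RNA gave Sc5d (0.24 ± 0.08, adjusted p = 0.518) and Scap (0.17 ± 0.07, adjusted p = 0.544).

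Some members varied widely in NIH3T3 without following the order of levels. Hmgcs1 had polysome RNA of 32.3, 21.0, 28.4, 44.4 and 27.0 RPKM and total RNA of 11.4, 5.52, 3.75, 4.89 and 5.53 RPKM from X0 to X4. Idi1 had polysome RNA of 19.7, 16.4, 28.7, 39.4 and 22.9 RPKM and total RNA of 6.21, 3.73, 2.80, 3.60 and 3.74 RPKM. In both, occupancy was highest at X3 and lowest at X0, and their means of 2.26 and 2.50 log2 units exceeded those of 99.7% and 99.9% of genes, beside a median of 0.62. In mean occupancy of the fatty acid genes, 14.8% of all genes lay below Acaca (−0.21), 33.6% below Acly (0.38) and 70.3% below Elovl6 (0.89). Fasn was the lowest of them, with a mean of −0.64 and 10.4% of genes below it. Its polysome RNA was 21.6, 14.4, 11.9, 12.1 and 14.3 RPKM on total RNA of 22.2, 22.4, 21.4, 24.2 and 24.8 RPKM, so that X0 held the highest occupancy, and its slope was −0.18 ± 0.08 (adjusted p = 0.639).

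In NIH3T3, X0 was also compared with the other levels, and no other single level was compared in this way. With X0 set against the other 4 levels, 11.3% of all genes were higher and 11.4% lower at X1 to X4 in total RNA, and 2.43% and 2.10% in polysome RNA. Of 24 sterol genes 5 were higher and 4 lower in total RNA, and of 4 fatty acid genes 0 were higher and 2 lower. The lower genes were Hmgcs1 (−1.15 ± 0.22 log2 units, adjusted p = 0.0165), Idi1 (−0.77), Insig2 (−0.75), Stard4 (−0.63), Acaca (−0.85) and Acly (−0.63). Total RNA of Acly was 26.9, 23.3, 31.8 and 28.8 RPKM from X1 to X4 against 42.8 RPKM at X0, and that of Stard4 lay between 3.02 and 3.79 RPKM from X1 to X4 against 5.36 RPKM at X0. The higher genes were Scap (0.92 ± 0.17, adjusted p = 0.0148), Tm7sf2 (0.82), Ebp (0.57), Srebf2 (0.46) and Mvk (0.45). Total RNA of Scap was 29.4, 29.7, 33.2 and 38.7 RPKM from X1 to X4 against 17.0 RPKM at X0. Acly (−1.01 ± 0.15, adjusted p = 0.0217) was the only member that passed in polysome RNA, with 30.8 to 36.9 RPKM from X1 to X4 against 69.4 RPKM at X0. In occupancy the differences of the members ran from −0.76 ± 0.21 log2 units (Fasn) to 1.13 ± 1.32 (Idi1). The X0 side of these comparisons is 1 library, assumed to vary like the others, and the part of that library in them was not tested.

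The difference between the lines was tested as an interaction over 7257 genes measured in both. For occupancy, 0 of 23 sterol and 0 of 4 fatty acid genes passed with limma, as did 0% of all genes. At an unadjusted p under 0.05, 8 sterol and 2 fatty acid genes had lower slopes in HEK293A than in NIH3T3, beside 2192 of all genes, and 397 of all genes had higher ones. The smallest p was that of DHCR7, with a slope of −0.35 in HEK293A and −0.06 in NIH3T3 and a difference of −0.29 ± 0.08 (adjusted p = 0.0523), which passed without X2 (adjusted p = 0.0362). INSIG1 had slopes of −0.15 and 0.12, a difference of −0.26 ± 0.09 (adjusted p = 0.079). In total RNA 0 of 27 passed as well (1 sterol gene with a higher slope and 6 with a lower one at an unadjusted p under 0.05). There SQLE had a difference of −0.22 ± 0.05 (adjusted p = 0.143) and SREBF2 of −0.20 ± 0.05 (adjusted p = 0.125). The sign of the occupancy slope was shared by both lines in 21 of the 27 genes, 13 below 0 and 8 above 0, beside 5077 of 7257 genes (69.96%). The sign of the total RNA slope was shared in 9 of the 27, beside 3237 of 7257 genes (44.6%).

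**Figure D3:**
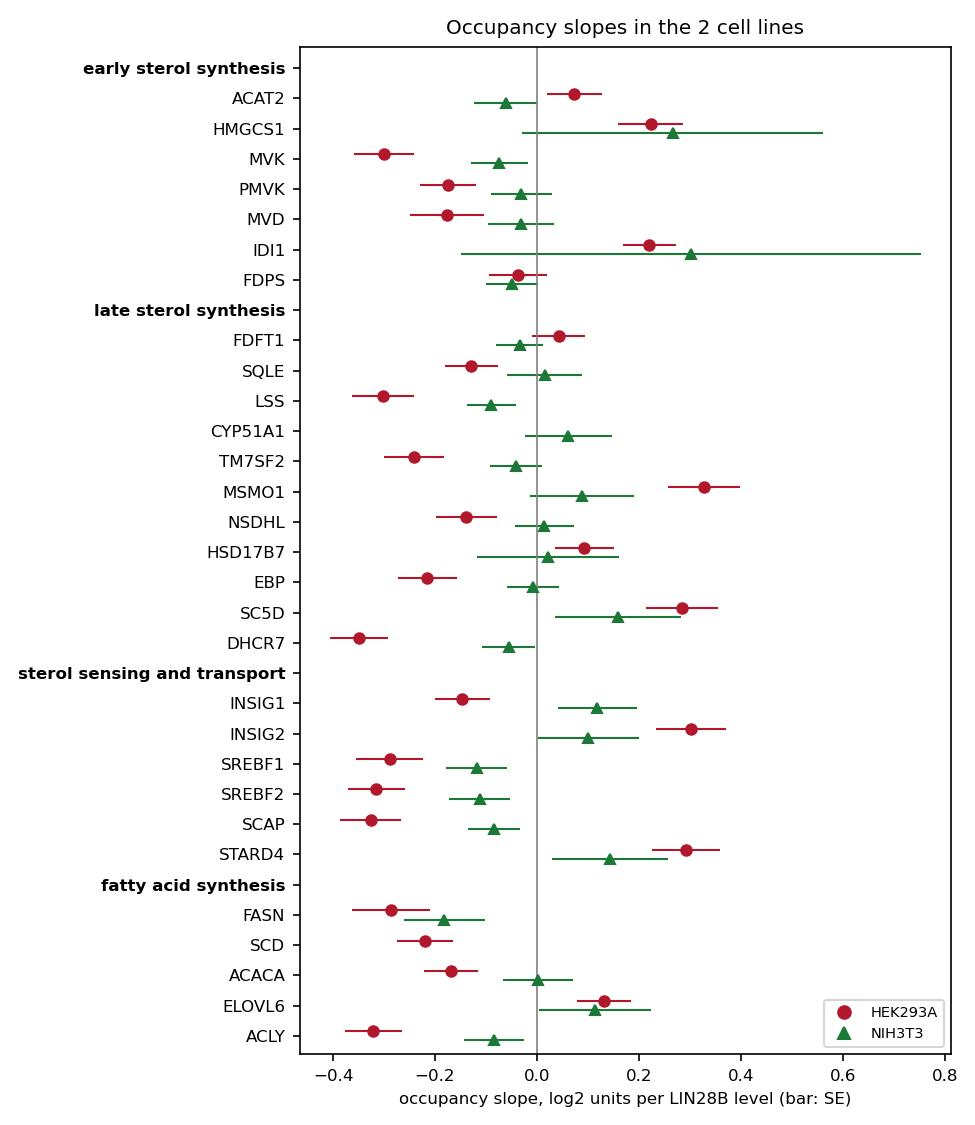
Occupancy slopes, in log2 units per LIN28B level with SE as bars, of each gene in HEK293A (red circles) and NIH3T3 (green triangles). DHCR7 lies at −0.35 in HEK293A and −0.06 in NIH3T3, INSIG1 lies on opposite sides of 0 (−0.15 and 0.12), and the widest errors are those of IDI1 and HMGCS1 in NIH3T3.

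The last question was how the genes stood after let-7a was introduced into X0 cells. Each side is 1 library per fraction, and the transfected libraries come from a table of their own, scaled separately, so there is no test and the intervals cover counting error only. A difference of at least 0.5 log2 units was counted. In total RNA 3 of 28 genes were higher with let-7a and 5 were lower, beside 12.2% and 12.0% of all genes. All 3 higher genes belonged to sterol sensing, and the 5 lower ones were the enzymes SQLE, IDI1, FDFT1, ACLY and NSDHL. In the small RNA libraries, let-7a features had 5 (AGO2-bound) and 4 (total) counts in knockout cells and 3 and 1 counts in X3 cells with let-7a, and 0 counts in the 4 libraries without it, where 3 counts is the limit a count of 0 allows.

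INSIG1 had the largest difference of the set. Its total RNA was 111 RPKM with let-7a and 29.9 RPKM without it, a ratio of 3.71 (95% interval 3.59 to 3.84). In polysome RNA it stood at 125 RPKM with let-7a and 26.5 RPKM without, a ratio of 4.72 (4.42 to 5.05). Its total RNA with let-7a lay above all 5 untransfected levels, which ran from 14.7 to 29.9 RPKM. SREBF1 followed with 9.45 RPKM with let-7a and 5.10 RPKM without in total RNA (1.85, interval 1.74 to 1.97). SREBF2 stood at 40.4 RPKM with let-7a and 27.0 RPKM without (1.50, interval 1.46 to 1.54). In polysome RNA both were about as far apart or further, SREBF1 with 8.24 RPKM with let-7a and 4.01 RPKM without and SREBF2 with 45.2 and 22.7 RPKM. INSIG2 (4.95 RPKM with let-7a and 3.76 RPKM without), STARD4 (5.99 and 4.97 RPKM) and SCAP (24.2 and 21.7 RPKM) differed by less than 0.5 log2 units in total RNA.

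In total RNA 0 of 7 early and 0 of 10 late enzymes were higher by 0.5 log2 units, and 1 early and 3 late ones were lower. Among all genes 12.2% were higher and 12.0% lower. In polysome RNA 0 were higher, and 4 of the 7 early and 3 of the 10 late enzymes were lower, beside 30.0% higher and 18.5% lower among all genes. After centring 0 were higher in polysome RNA and 4 early and 4 late enzymes were lower, beside 2443 higher and 2959 lower of all 11125 genes. SQLE had total RNA of 23.6 RPKM with let-7a and 44.1 RPKM without (0.534, interval 0.513 to 0.556), IDI1 29.7 and 46.4 RPKM, and FDFT1 21.9 and 33.4 RPKM. FDFT1 was also the lowest in polysome RNA relative to untransfected cells, with 30.5 RPKM with let-7a and 63.7 RPKM without (0.480, interval 0.449 to 0.511). MVK, at 8.30 RPKM with let-7a and 6.05 RPKM without in total RNA (0.43 log2 units), was below that limit. CYP51A1, lanosterol demethylase, is listed in the transfected libraries at 1.65 RPKM in polysome RNA and 0.992 RPKM in total RNA.

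**Figure D4:**
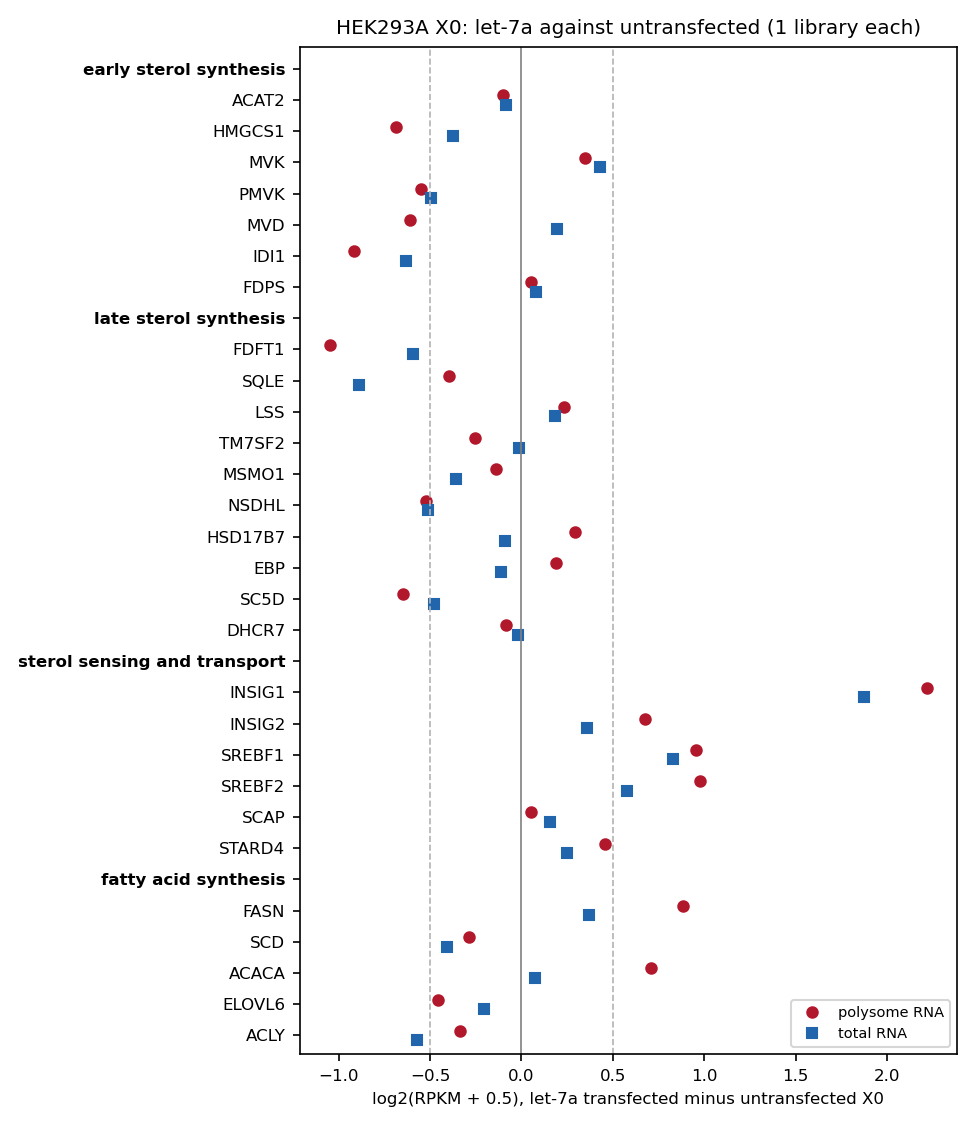
Difference in log2(RPKM + 0.5) between let-7a-transfected and untransfected HEK293A X0 cells, 1 library each, for polysome RNA (red circles) and total RNA (blue squares) of each gene, with dashed lines at 0.5 log2 units either way. INSIG1 lies at 2.22 in polysome and 1.87 in total RNA, to the right of the other genes, and SQLE is lowest in total RNA at −0.89.

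Among fatty acid genes ACLY had total RNA of 32.9 RPKM with let-7a and 49.1 RPKM without, and SCD 59.3 and 78.6 RPKM. FASN, at 144 RPKM with let-7a and 112 RPKM without in total RNA, was further apart in polysome RNA, with 86.6 and 46.7 RPKM (1.85, interval 1.79 to 1.92). ACACA had 12.4 RPKM with let-7a and 7.39 RPKM without in polysome RNA, on total RNA of 17.3 and 16.4 RPKM. Occupancy was therefore higher by 0.51 log2 units for FASN and 0.64 for ACACA, and lower for MVD (−0.80). These were 2 higher and 1 lower of 28 genes, beside 23.1% and 8.93% of all genes, whose median difference was 0.15. After centring 0 were higher and 2 lower, MVD and FDFT1, beside 1513 higher and 1805 lower of all 11125 genes. In polysome RNA 6 of the 28 were higher and 7 lower, beside 30.0% and 18.5% of all genes. The let-7a differences and the HEK293A trends share the untransfected X0 libraries. Of the 5 genes whose total RNA fell as LIN28B rose, INSIG1 (1.87 log2 units) and LSS (0.18) were higher in total RNA with let-7a than without. SQLE (−0.89), IDI1 (−0.63) and HMGCS1 (−0.38) were lower with let-7a. The X0 value of each gene enters both comparisons.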

How the data were processed

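The deposited values for polysome and total RNA are RPKM, as counted by the authors, in 1 table per line and 1 for the let-7a libraries. For 8 small RNA libraries the authors deposited raw counts. The submitters' processing notes name cutadapt and STAR, and hg19 and mm10 as builds. No counting tool or strand setting is given, so overlapping and antisense genes cannot be told apart. In the RefSeq annotation 13 of the 29 members overlap another gene, among them ACAT2, MVK, IDI1, FDPS, DHCR7, INSIG1, SREBF1, SREBF2, SCAP and STARD4. Every gene in the human table has at least 1 RPKM in each of its 5 total RNA libraries. Whole reads were recovered from RPKM steps within 0.02 of a whole number (100% of HEK293A, 90.7% of NIH3T3 and at least 99.9% of let-7a values above 0).

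A gene was kept if its mean over the 10 libraries of a line reached 1 RPKM, 0.5 was added to the deposited RPKM before log2, and lines over level ranks 0 to 4 were fitted with limma 3.58.1 (R 4.3.3, eBayes with trend), with Benjamini-Hochberg adjustment over all genes. The count test was edgeR 4.0.16. Alternatives were other pseudocounts, filters, centring on a 10% trimmed mean, quantile normalization, leaving out each level, X0 against the other levels, eBayes without trend, a line over log2 LIN28B and edgeR. The scripts were tested on simulated data. Exact 95% intervals come from recovered reads and cover counting error only. Members and gene lists were chosen with earlier results of these data known. Values per library were given for members past the threshold in a trend, for the regulators and fatty acid genes, and for the highest and lowest members of a group. A single gene of the further sterol list is counted but not reported here.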

Additional observations from a re-analysis of the deposited data

How the results depend on the processing

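The HEK293A calls rest on the ends of the series. Of the 20 members called in occupancy 0 were left without X4 and 7 without X0 (5 sterol falls, 2 fatty acid falls and 0 sterol rises), and a contrast of X0 with the rest called 0 (0 sterol rises, 0 sterol falls and 0 fatty acid falls). Over all 11125 genes the occupancy calls were likewise 0 without X4, 163 rises and 1511 falls without X0, and 1 rise and 1 fall in that contrast. Leaving out 1 level in turn gave 0 to 22 calls in occupancy (0 to 6 sterol rises, 0 to 12 sterol falls and 0 to 4 fatty acid falls), 0 to 7 in total RNA (0 to 5 sterol falls) and 0 to 22 in polysome RNA. In total RNA 0 of 6 were left without X0, 3 without X3 (2 of them falls) and 0 in the contrast of X0 with the rest, where polysome RNA also gave 0 of 21. The same contrast in NIH3T3 gave 11 members in total RNA and 1 in polysome RNA where the line over levels gave 0. The slope difference between lines in occupancy called 1 member, DHCR7, with a pseudocount of 1 or without X2, and 0 otherwise. Counting let-7a differences of at least 1 log2 unit left 1 of 8 members in total RNA, INSIG1, and 0 of 3 in occupancy. The cause of these changes was not tested, except that a stricter fold counts fewer genes by construction. Under the remaining alternatives calls of single members held in 166 cases and were lost in 11 in occupancy, held in 179 and were lost in 7 in polysome RNA, and held in 50 and were lost in 4 in total RNA, and no direction reversed. Over all genes in HEK293A occupancy, edgeR, which scales libraries by TMM, called 3289 rises and 3200 falls where limma called 2124 and 4341. No paired analysis was possible because the labels give no replicate numbers within a level, beyond the pairing of polysome with total RNA by level that occupancy itself uses.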

Other observations

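Occupancy slopes in HEK293A were set beside properties of the genes that played no part in choosing them. Over 7983 genes with a RefSeq promoter window, Spearman's rho between the occupancy slope and the GC content of the window was −0.22, and over 24 members it was −0.24. Gene length gave 0.02 over 11123 genes and −0.31 over 28 members. These are descriptions across genes of the same libraries, and genes are not independent replicates. The 14 members with falling occupancy had a median GC content of 70% (13 with a window, 57.6% to 81.6%), and the 6 with rising occupancy 68.4% (65.6% to 74%). The 8 members not called had the lowest median, 66.4% (5 with a window, 57.2% to 69.6%).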
